A study of Mus musculus with 2 samples.

Results

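The region described here is a 15 kb stretch of mouse chromosome 17 (from position 39975001 of mm9 on) that holds an assembled copy of Rn45s, the gene for the 45S precursor of ribosomal RNA. It is 1 of 170405 windows of 15 kb on the chromosomes and was chosen from these reads, with the peak the authors list there and its read counts known, so its depth and ratios are descriptions. The reads come from chromatin immunoprecipitation with sequencing (ChIP-seq) of LUZP1, a leucine zipper protein. The cells were E14, mouse embryonic stem cells of strain 129P2/OlaHsd, grown without feeders and used at passages 25 to 30. There was 1 library precipitated with rabbit serum against LUZP1 and 1 mock library, which the sample labels call free of antibody and the design text assigns to GST. The study asks about coactivators at non-coding RNA genes, of which ribosomal RNA is the most abundant product in a cell.

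Ribosomal RNA is made by RNA polymerase I in the nucleolus as a long precursor. External and internal transcribed spacers are cut out of it, which leaves the mature 18S, 5.8S and 28S RNAs of the ribosome. The genes lie in long tandem arrays on several chromosomes that reference assemblies leave out almost entirely. Reads from copies in the arrays can be placed on an assembled one where their sequences match.

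The LUZP1 library held 4214959 reads of 36 bp and the mock held 2734938, or 1.59 and 1.03 reads per kb of chromosome. No position held 2 reads of the same strand in either library. Reads were counted by the first base sequenced (the 5′ end), and ratios were scaled to total reads. With 1 library per group no test could be made. Each interval is the exact 95% interval of the counts (binomial for ratios and shares, Poisson for depths) and covers counting error only. It treats reads as independent. Opposite-strand reads lay at a preferred distance over most of the genome (below), so some may be ends of the same fragment. The intervals can therefore be too narrow.

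The copy stood out by its bases. A GC-rich block of 5825 bp (chr17:39979946-39985770, 65.0% GC) lay between sequence of 37.3% GC upstream and 36.5% GC downstream. The letters CTGGTTGAT, close to the 5′ end of 18S, occurred once on the plus strand of the region (and once on its minus strand), and so did GGATCATTA, with which 18S ends and which had no minus match. Either motif on either strand is common in itself, in 9.35% and 6.38% of the 15 kb windows of chromosome 17. Together they placed 18S at 39983298 to 39985146 of the plus strand. That is 1849 bp, the length RefSeq gives for the 18S-related entry Rn18s-rs5 in its GRCm38 table. That entry is on chromosome 17 as well and may be this same copy, so the equal length is no independent check. The 3352 bp of the block before it are named 5′ external transcribed spacer here, and the 624 bp after it internal transcribed spacer 1. These names rest on position beside 18S alone. No reference sequence of the spacers was aligned, and the start of transcription was not located. The 2 annotated mouse 5.8S genes found no match in the region, with edits at 39.2% and 43.9% of their length at best. No stretch could be assigned to 5.8S. No reference sequence of 28S was used here, so 28S was not searched for, and both are without a value. The annotation used has 1 gene in the region, AY036118, a pseudogene on the minus strand (39985048 to 39985772) that lies over the end of 18S and all of the assembled internal spacer. Rn45s itself carries no entry in that annotation.

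The limits of the copy and of 18S are shown because all values by part rest on them. Each line gives the plus strand of mm9, 5′ to 3′. Capitals mark the bases inside the block (both edges) or inside 18S (both ends).
Left edge, chr17:39979916-39979975: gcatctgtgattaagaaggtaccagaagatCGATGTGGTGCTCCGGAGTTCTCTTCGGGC
Start of 18S, chr17:39983268-39983327: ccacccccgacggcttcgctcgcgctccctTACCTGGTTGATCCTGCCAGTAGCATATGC
End of 18S, chr17:39985117-39985176: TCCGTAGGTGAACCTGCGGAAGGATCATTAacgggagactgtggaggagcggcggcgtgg
Right edge, chr17:39985741-39985800: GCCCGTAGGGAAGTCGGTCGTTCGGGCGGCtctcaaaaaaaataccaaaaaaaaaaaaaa

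The region held 543 LUZP1 reads and 103 mock reads, and 530 and 99 of them began inside the block. Scaled to total reads, LUZP1 exceeded the mock 3.42-fold over the region (95% interval 2.77 to 4.27). The 200 kb on each side went the other way. They held 157 LUZP1 and 154 mock reads, a scaled ratio of 0.662 (0.526 to 0.832). Against these flanks the block's ratio was 5.24 times as high (3.81 to 7.24). The flanks have 37.3% GC and the block 65.0%. With both divided by the ratio of windows of their own GC content, the block stood 3.28 times above the flanks (2.38 to 4.53), and the flanks were at 0.802 with an interval that includes 1 (0.638 to 1.01). With the flanks in place of total reads as the scale, the region's ratio was 5.17 (4.18 to 6.45).

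Both libraries were far deeper on the copy than around it. The block had 21.6 LUZP1 and 6.21 mock RPM (reads per 1000000 reads of the library) per kb, 57.3 times (52.5 to 62.4) and 16.5 times (13.4 to 20.1) the mean of each library. The whole region was 22.8 times as deep as the mean of the library in LUZP1 and 6.67 times in the mock. Against the flanks it was 92.2 times as deep in LUZP1 (77.1 to 111) and 17.8 times in the mock (13.8 to 23.0). The flanks were themselves below the mean, at 0.247 times it in LUZP1 and 0.374 times in the mock, which raises the values against them. Measured against 1 Mb on each side the region was 48.9 and 10.3 times as deep, so the size of the excess depends on the flank chosen. Outside the block but inside the region, LUZP1 had 13 reads and the mock 4 over 9175 bp. The number of rDNA copies in these cells was not measured, and copy number and chromatin state cannot be told apart within 1 library.

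**Figure D1:**
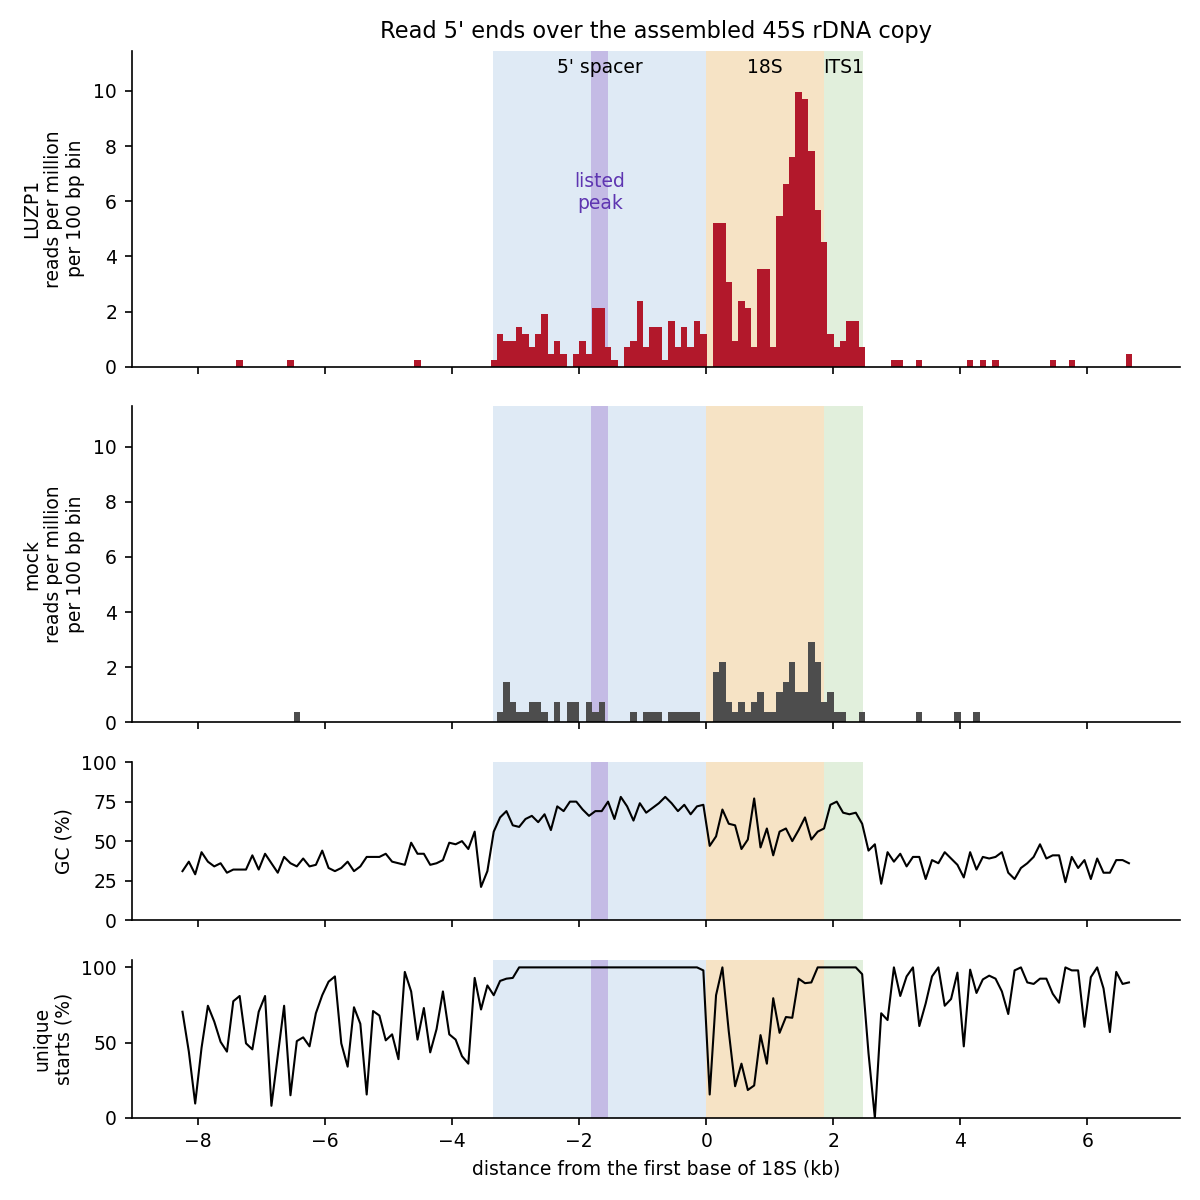
RPM, placed by read 5′ ends, in 100 bp bins for LUZP1 and mock on the same scale, with GC content and the share of start positions whose 36 bases occur once, against distance from the first base of 18S in kb. Signal is spread over the block and falls off at its edges, but 3 of the 59 bins of the block held 0 LUZP1 reads and 14 held 0 mock reads. The highest LUZP1 bin, at 9.96 RPM, lies near the end of 18S, and the listed peak lies in the 5′ spacer.

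Every part of the assembled copy was higher in LUZP1. The 5′ external spacer, which is cut from the precursor and does not enter the ribosome, held 143 LUZP1 and 34 mock reads, a scaled ratio of 2.73 (1.87 to 4.09). The 18S part, which encodes the RNA of the small subunit, held 355 and 58 reads, a scaled ratio of 3.97 (3.002 to 5.34). Internal spacer 1, which separates 18S from 5.8S, held 32 and 7 reads, a scaled ratio of 2.97 (1.29 to 7.96). The intervals overlap: the 18S ratio was 1.45 times that of the 5′ spacer, with an interval of 0.883 to 2.37 that includes 1. A difference in ratio between the parts was therefore not detectable at this depth. AY036118 held 58 and 10 reads, a scaled ratio of 3.76 (1.91 to 8.26), and these reads are shared with the parts it overlaps.

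**Figure D2:**
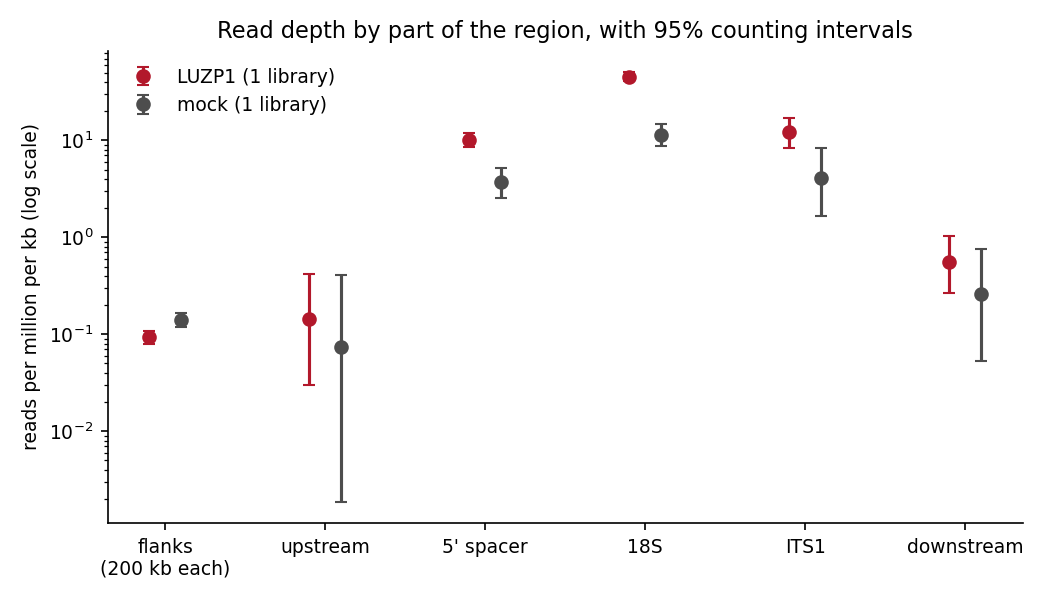
RPM per kb (log axis) in the flanks and in each part of the region for the LUZP1 and mock libraries, with exact Poisson 95% intervals. LUZP1 lies above the mock in all 3 parts of the copy, 45.6 against 11.5 in 18S, and below it in the flanks, 0.0931 against 0.141.

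In both libraries 18S was the deepest part. LUZP1 had 192 reads per kb there and 42.7 in the 5′ spacer, and the mock had 31.4 and 10.1. The step between these parts was thus 4.50-fold in LUZP1 (3.70 to 5.50) and 3.09-fold in the mock (1.99 to 4.87). Start positions in 18S are less often unique. Only 61.2% of start positions in 18S have 36 bases that occur once in the chromosomes, against 99.1% in the 5′ spacer, and all 543 LUZP1 and 103 mock reads of the region lay at such positions. Per unique start position 18S was 7.29 times as deep as the 5′ spacer in LUZP1 (5.99 to 8.91) and 5.01 times in the mock (3.22 to 7.89). GC content differs between these parts as well, at 55.4% in 18S and 69.1% in the spacer, and its share in the step was not tested.

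Depth within 18S was uneven. The first 616 bp held 71 LUZP1 and 16 mock reads, the middle 616 bp 75 and 11, and the last 617 bp 209 and 31. Reads occupied 11.3%, 13.1% and 19.6% of unique start positions in LUZP1, and 2.56%, 1.93% and 2.91% in the mock. The occupied share of the last stretch was 1.73 times that of the first in LUZP1 (1.31 to 2.30), and 1.14 times in the mock, where the interval includes 1 (0.604 to 2.23). The LUZP1 to mock ratio of the last stretch was 1.52 times that of the first, with an interval of 0.730 to 3.06. A steeper rise in LUZP1 than in the mock was therefore not detectable. The highest 100 bp bin is printed because the signal peaks in it. It held 42 LUZP1 and 3 mock reads, and capitals mark the 36 bases that the LUZP1 reads covered most.
Highest bin, chr17:39984701-39984800: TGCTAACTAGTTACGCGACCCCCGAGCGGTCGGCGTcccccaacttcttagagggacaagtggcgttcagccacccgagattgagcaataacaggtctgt

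Bins of 100 bp showed how evenly the excess was spread. Over the 59 bins of the block, LUZP1 had 0 to 42 reads with a median of 5, and the mock had 0 to 8 with a median of 1. LUZP1 was higher after scaling in 51 bins and the mock in 6. Among the bins of the region with 5 or more reads, 30 of 40 were at least 2-fold higher in LUZP1 with 1 added to both scaled counts, and 0 were so in the mock. Outside the region, 21.4% of such bins on chromosome 17 passed in the LUZP1 direction (25 of 117) and 3.42% in the mock direction. The region was chosen with these reads known, so its count is a description. The minimum counts reads of both libraries together, so some bins passed it through LUZP1 reads alone, such as those with 10 and 0 or 5 and 0 reads. The counts in either direction therefore depend on the minimum, inside the region and outside it. At 3-fold the count was 15 of 40, against 17.1% outside (20 of 117). At 2-fold with reads scaled to the flanks it was 33 of 40, against 53.8% outside (63 of 117), so the contrast depends on the scale.

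Base composition moved with the ratio. Over 500 bp windows of all chromosomes, the LUZP1 to mock ratio was 0.850 at 36% to 38% GC, 1.20 at 56% to 58% and 1.64 at 70% to 72%. It rose further, to 2.23 at 74% to 76% and to 3.67 at 78% and above (113 mock reads). That last value is above the region's own scaled ratio of 3.42. Divided by the ratio of windows of the same GC content on all chromosomes, the region was at 2.77 (2.24 to 3.45). The 18S part was then at 3.25 (2.46 to 4.37) and the 5′ spacer at 1.84 (1.26 to 2.75). Internal spacer 1 was at 1.68, and its interval of 0.727 to 4.50 included 1. At matched GC content the intervals of the region, of 18S and of the 5′ spacer thus lay above 1, and an excess in internal spacer 1 was not detectable. All intervals at matched GC content take the ratio of the windows as known. They leave out its spread among windows of the same GC content. How much of the excess goes with base composition was not tested.

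**Figure D3:**
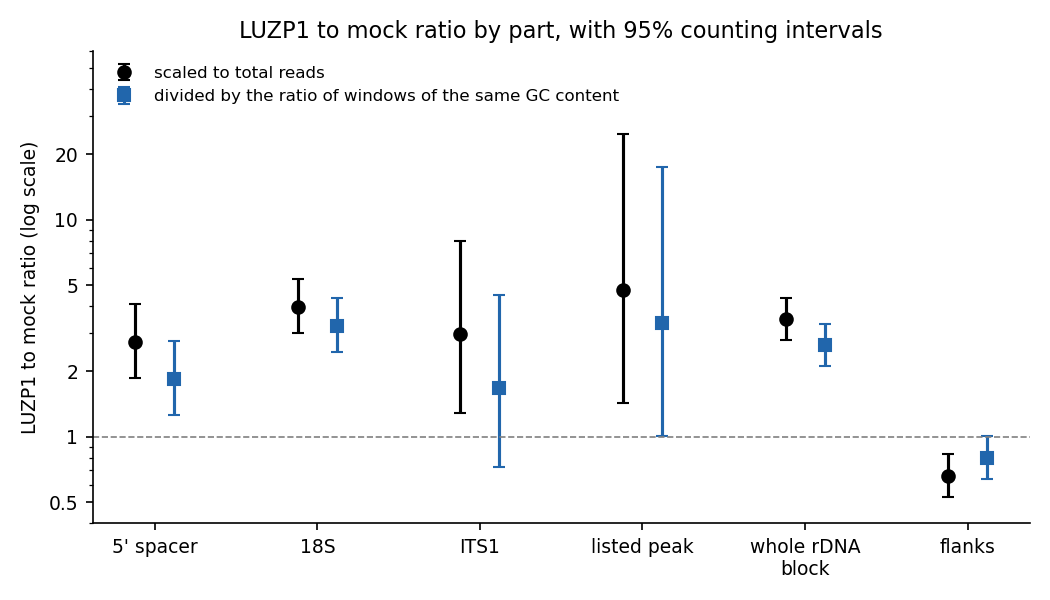
LUZP1 to mock ratio (log axis) in the parts of the copy, the listed peak, the whole block and the flanks, with 95% counting intervals; circles are scaled to total reads and squares are further divided by the ratio of windows of the same GC content. The block lies at 3.47 and, at matched GC content, at 2.64, and the flanks lie at 0.662 and 0.802.

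The authors list 1 LUZP1 peak in the region, in the 5′ spacer and not in 18S. It spans 262 bp (39981490 to 39981751), begins 1544 bp into the block and ends 1546 bp before 18S. It held 22 LUZP1 and 3 mock reads, a scaled ratio of 4.76 (1.43 to 24.8), or 3.36 at matched GC content (1.01 to 17.5). The rest of the 5′ spacer held 121 and 31 reads, a scaled ratio of 2.53 (1.70 to 3.89). The peak's ratio was 1.87 times that, with an interval of 0.512 to 10.4, so it was not distinguishable from the spacer around it. Among the 47 listed peaks it ranked 3 by LUZP1 reads and 12 by reads per kb. Within the copy it was not the highest stretch: 28.9% of the 5564 stretches of its length in the block held more LUZP1 reads. The highest of them (39984656 to 39984917), in 18S, held 114 and 13, a scaled ratio of 5.69 (3.20 to 11.01). It was picked for the most LUZP1 reads among all these stretches. That choice raises its ratio, and the interval does not allow for it, so both are descriptions. The design text says that listed peaks were repeat masked, and whether this kept 18S off the list was not tested. The peak is printed with capitals on the 36 bases that LUZP1 reads covered most. It has 69.8% GC and 34 CpG dinucleotides, or 130 per kb, against 4.84 per kb in the flanks and 112 per kb in the whole 5′ spacer.
Listed peak, chr17:39981490-39981751: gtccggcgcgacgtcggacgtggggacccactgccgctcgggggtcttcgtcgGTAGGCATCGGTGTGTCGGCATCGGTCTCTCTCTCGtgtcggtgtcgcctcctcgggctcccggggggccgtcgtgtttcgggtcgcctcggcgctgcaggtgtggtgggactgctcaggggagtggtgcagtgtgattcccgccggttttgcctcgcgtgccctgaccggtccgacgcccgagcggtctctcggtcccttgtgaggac

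Reads fell equally on both strands. The plus strand had 274 of 543 LUZP1 reads, or 50.5% (46.2% to 54.7%), and 51 of 103 mock reads, or 49.5% (39.5% to 59.5%). In the 5′ spacer the plus share was 47.6% in LUZP1 (39.1% to 56.1%) and 38.2% in the mock (22.2% to 56.4%), and in 18S it was 52.1% (46.8% to 57.4%) and 56.9% (43.2% to 69.8%). The middle 616 bp of 18S were the exception among the stretches of 18S in LUZP1, with 49 plus and 26 minus reads, or 65.3% (53.5% to 76.0%). Unique start positions there were 53.1% on the plus strand.

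The spacing of opposite strands on the copy differed from that of the rest of the chromosome. Elsewhere on chromosome 17, plus and minus 5′ ends lay most often 84 bp apart in LUZP1 and 160 bp apart in the mock, at 13.5 and 25.1 times the mean count of pairs more than 300 and up to 600 bp apart. A maximum of this kind is usual where both ends of fragments are read. In the region the most frequent distances were 27 bp and 36 bp, at 2.22 and 3.05 times that mean. These modes rest mostly on 18S, where they were 27 bp and 32 bp. In the 5′ spacer LUZP1 pairs were most often 81 bp apart, close to the 84 bp of the rest of the chromosome, but also at 2.22 times the mean, and mock pairs 58 bp apart. Of LUZP1 pairs 5 to 300 bp apart in the block, 8.52% fell at 73 to 96 bp, where an even spread gives 8.11%, against 42.9% on the rest of chromosome 17. For the mock, 9.78% fell at 148 to 174 bp, where an even spread gives 9.12%, against 46.8%. The block had 11780 LUZP1 pairs and 347 mock pairs up to 600 bp apart, but only 530 and 99 reads, so most pairs joined different fragments and no fragment length could be read from them.

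**Figure D4:**
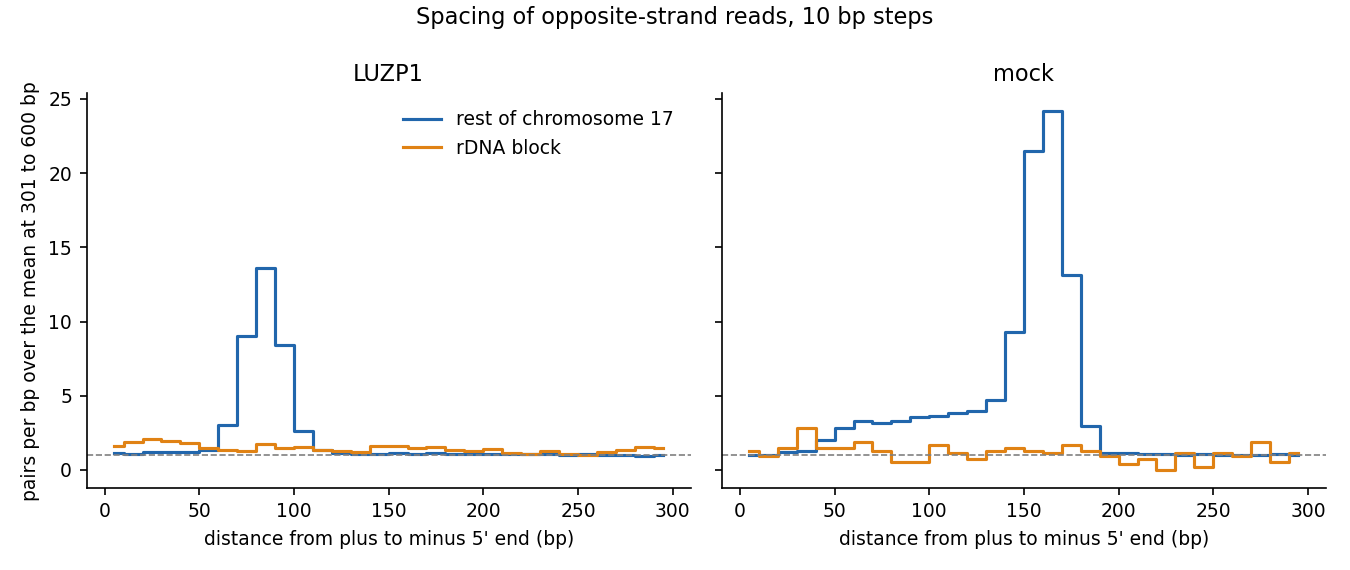
Pairs of plus and minus 5′ ends per bp of distance in 10 bp steps, relative to the mean more than 300 and up to 600 bp apart, for the rDNA block and the rest of chromosome 17 in each library. The rest of the chromosome reaches 13.6 at 80 to 89 bp in LUZP1 and 24.2 at 160 to 169 bp in the mock, where the block is at 1.78 (a small local rise) and 1.12.

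Among windows of the same size, the region combined high depth with a high ratio. It ranked 7 of 170405 windows by LUZP1 reads and 21 by mock reads, where the median window held 24 and 16. Of the 185 windows with 100 or more reads in all, it had the highest ratio with 1 added to both counts. The next was a window with Aurkb on chromosome 11, at 88 and 23 reads and a scaled ratio of 2.48 (1.55 to 4.12), named after its values were seen. The windows most like the region in both libraries, by distance in log2 depth over the library mean, were 5 with ratios of 0.714 to 1.26, at distances of 1.29 to 1.63. The nearest lay on chromosome 11 (3090001 to 3105000) over Drg1, Eif4enif1, Fau-ps2, Gm12735 and Sfi1, with 467 LUZP1 and 250 mock reads and a scaled ratio of 1.21 (1.04 to 1.42). The others lay on chromosome 11 over Gm11399, Pisd-ps1 and Sfi1, on chromosome X over Mid1, and on chromosomes X and 9 away from annotated genes. The interval of each of these 5 windows lay below that of the rDNA region, whereas the interval of the Aurkb window overlapped it. Both the region and these windows were picked by depth in these same reads, so this is a description. How many of the 185 windows had intervals below that of the region was not counted.

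**Figure D5:**
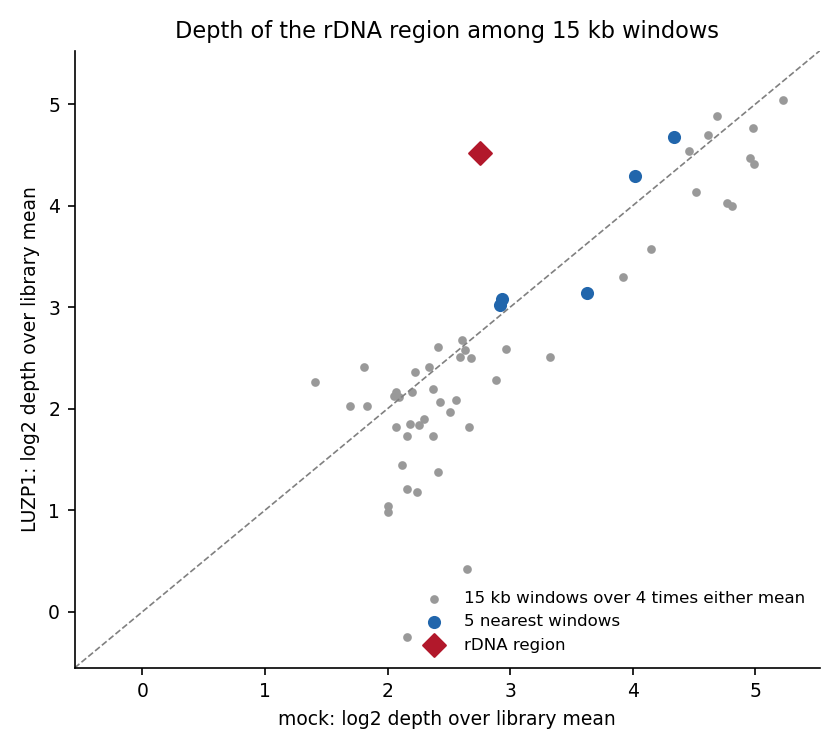
Depth of 15 kb windows as log2 over the library mean (1 added to each count), mock on the x axis and LUZP1 on the y axis, for windows over 4 times the mean in either library; the dashed line marks equal depth. The rDNA region lies at 2.75 in the mock and 4.51 in LUZP1, and the 5 nearest windows lie close to the line.

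Other sequence of the rDNA kind is scattered over the chromosomes. A search with the block found 22 loci of 300 aligned bp or more, 17 of them matching 18S. The closest, on chromosome 6 (3150770 to 3151670), matches 901 bp of 18S at 98.2% identity and has no annotated gene. It held 25 LUZP1 and 3 mock reads, a scaled ratio of 5.41 (1.65 to 27.98). Its depth was 27.7 and 3.33 reads per kb, where the 50 kb on each side had 0.83 and 0.45. The other 21 loci together held 28 and 10 reads, a scaled ratio of 1.82 (0.857 to 4.19), and enrichment at them was not detectable. Reads of both copies can come from the same arrays, so the chromosome 6 copy is no independent replicate.

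Starts of genes for the machinery that makes and processes the precursor had no such excess. Of 26 listed symbols 25 were annotated, among them subunits of RNA polymerase I, its initiation factors and nucleolar processing factors. Within 500 bp of their starts LUZP1 had 68 reads and the mock 50, a scaled ratio of 0.882 (0.604 to 1.30). Of the 11 starts with 5 or more reads, 1 was at least 2-fold higher in LUZP1 and 6 in the mock, where 25.4% and 13.5% of such protein-coding starts passed. Their median ratio with 1 added was 0.460, against 1.20 for protein-coding starts with 5 or more reads. Over all 25 the median was 1.149, as over all 22380 protein-coding starts. The minimum counts reads of both libraries together, so starts with fewer than 5 LUZP1 reads and 0 mock reads dropped out. The counts and the median of the 11 starts therefore depend on the minimum and are descriptions. Of all 25 starts the highest was Ubtf, the upstream binding factor of rDNA promoters, with 5 and 0 reads. Polr1c, Polr1d and Polr1e, subunits of RNA polymerases, followed with 4 and 0 each, below the minimum of 5 reads. The lowest were Nop58, a core protein of box C/D small nucleolar RNPs, with 0 and 5 reads, Znrd1, a polymerase I subunit, with 2 and 6, and Polr1a, the largest polymerase I subunit, with 1 and 4. Of the 25 intervals only that of Nop58 left out 1, with an upper bound of 0.708. It rests on 5 mock reads, and the share of such intervals over all protein-coding starts was not computed. No result about Nop58 is drawn from it.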

How the data were processed

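ChIP-seq reads of E14 ES cells were compared between 1 LUZP1 and 1 mock library. Per the labels' design text, the authors used 300 µg of chromatin, sequenced on an Illumina Genome Analyzer II, aligned to mm9 with Eland allowing 1 mismatch, called peaks with MACS, kept those of 100 to 1000 bp and masked repeats. Software versions: not given in the sources used here. The deposited read files hold a count of 1 per mapped read, and the deposited peak list holds positions only, counted from 1. Depth was 4214959 and 2734938 reads, so a ratio's precision rests on the reads of its stretch.

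The NCBIM37 reference (mm9) matched all 22 chromosome names, and 1 chromosome had a read past its end. Genes came from GENCODE mouse release 1. The block is the stretch that maximises bases G and C minus A and T. Limits at weights of 0.45 and 0.55 gave the same 530 and 99 reads. Sequences of 36 bases were counted on both strands for exact matches. GC content was matched in 500 bp windows in steps of 2%, weighted by mock reads. Pair distances were smoothed over 11 bp, and pair ranges are those where the genome-wide excess stayed above 50% of its maximum. Other copies were found with blastn 2.17.0+ (word size 20). Python 3.11.15, numpy 2.4.6 and scipy 1.17.1 were used. Bin calls, ratio intervals, pair distances, the block search and the counts of unique 36-base sequences were first tested on simulated data. The other steps were not.

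The region, gene list and alternatives were chosen with earlier results of these data known. The genes named are those inside the region, those in the 5 nearest windows and the 3 highest and 3 lowest of the list, with a tie named in full. Matching by GC content over all chromosomes (flanks included), the ratio without 18S, the stretches of 18S and the other copies were chosen after seeing the data. The GCN5 precipitation of the design text was not analysed here.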

Additional observations from a re-analysis of the deposited data

How the results depend on the processing

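No result changed direction in 47 recomputations, and 35 stayed within the counting interval (for counts of bins 1.5-fold, for pair distances 11 bp) of the reported value. Some of the 35 could not have differed. All reads of the region lay at unique start positions, so its ratios, strand shares and pair distances at such positions alone were identical by construction. Scaled to the reads of the chromosome 17 flanks, the ratios moved up, to 5.17 for the region, 4.13 for the 5′ spacer and 6.004 for 18S. Divided by the ratio at the same GC content they moved down, for the region to 2.71 with windows of chromosome 17 and to 2.77 with all chromosomes, and for the 5′ spacer to 1.84. Without the 18S part the region was at 2.71. The depth of the region over its flanks in LUZP1 was 48.9 with 1 Mb on each side, 74.5 per unique start position and 75.4 with occupied positions converted to expected reads, and in the mock it was 10.3 with 1 Mb. At 3-fold, 15 bins passed in place of 30. With opposite-strand pairs counted once the region was at 2.88 (2.29 to 3.67), although most pairs on the copy join different fragments. Few mock reads limit some ratios: internal spacer 1 rests on 7 and the listed peak on 3. No paired analysis was possible because each group has 1 library.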

Other observations

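Read depth rose and fell along the copy in both libraries. Over the 59 bins of 100 bp in the block, LUZP1 and mock counts had a Pearson r of 0.715 and a Spearman rho of 0.558. The bins share their unique sequence and base composition between libraries, so this describes the copy and no test was made. CpG dinucleotides, which most of the genome has lost, were as frequent in the block as its base composition gives (observed over expected 0.972, or 102 per kb), whereas the flanks were at 0.139.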
